A study of Homo sapiens with 12 samples.

Results

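Expression of 10 genes of the unfolded protein response of the endoplasmic reticulum (ER) was examined by RNA-seq: HSPA5, HSP90B1, CALR, PDIA4, SDF2L1, DNAJB9, CRELD2, HERPUD1, EDEM1 and XBP1. They were chosen by symbol as known genes of this response and were found as 10 of the 52859 gene entries used. All 10 were among the 16051 genes with enough reads to be tested. The cells were MDA-MB-231, an established line from a human triple-negative breast cancer, and they were transfected by a lipid reagent with a locked nucleic acid (LNA), a short stabilised oligonucleotide that pairs with a complementary RNA. The 4 groups of 3 libraries received a control LNA, the mtAsn-1 or the mtAsn-2 LNA, which are named for the mitochondrial asparagine tRNA, or the mtLys LNA, named for the mitochondrial lysine tRNA. Every group, control included, received 20 nM of LNA and was collected on day 2, so no group was left untransfected. All data come from 1 cell line. The LNA sequences and the target of the control LNA are not known here, and the labels do not say whether replicates were separate cultures. The p-values therefore rest on differences between libraries of a group that could be technical alone.

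The ER folds secreted and membrane proteins, and the unfolded protein response raises its folding and disposal capacity when unfolded chains build up. Background knowledge places the sensors IRE1 (gene ERN1), PERK (gene EIF2AK3) and ATF6 in the ER membrane. ATF6 and the transcription factor XBP1, whose mRNA is cut and rejoined by IRE1, switch on chaperone and disposal genes through short promoter elements, while PERK acts through ATF4 on another set. In triple-negative breast cancer, XBP1 is known as a driver of tumour growth. Gene counts do not separate the cut from the uncut form of XBP1 mRNA, so activity of IRE1 could not be read here.

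The promoters of the members are shown because the elements in them define the response. The ER stress response element (ERSE) was searched as CCAAT and CCACG with 9 bases of any kind between them, its variant ERSE-II as ATTGG and CCACG with 1 base between them, and the XBP1 element UPRE as TGACGTGG. Both strands of the 250 bases before each RefSeq transcription start (GRCh38.p14) were read, and all 10 members had a promoter entry. An ERSE was present in 5 of 10 members, against 0.074% of 35116 promoters of the same length. These matches, in capitals and 5′ to 3′ on the gene's strand, were as follows, with CGTGG leading where the element lies on the other strand. HSP90B1 held 2 of them.
HSPA5 (chr9:125241364-125241439, minus strand): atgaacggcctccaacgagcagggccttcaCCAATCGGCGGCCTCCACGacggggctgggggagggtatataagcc
HSP90B1 (chr12:103930186-103930369, plus strand): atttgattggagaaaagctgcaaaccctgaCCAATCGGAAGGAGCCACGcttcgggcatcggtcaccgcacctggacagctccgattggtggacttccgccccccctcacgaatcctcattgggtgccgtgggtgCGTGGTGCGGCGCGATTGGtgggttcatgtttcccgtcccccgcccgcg
CALR (chr19:12938359-12938432, plus strand): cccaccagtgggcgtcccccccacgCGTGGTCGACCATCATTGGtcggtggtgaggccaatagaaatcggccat
CRELD2 (chr22:49918524-49918602, plus strand): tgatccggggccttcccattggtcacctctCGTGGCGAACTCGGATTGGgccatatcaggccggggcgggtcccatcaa
XBP1 (chr22:28800590-28800651, minus strand): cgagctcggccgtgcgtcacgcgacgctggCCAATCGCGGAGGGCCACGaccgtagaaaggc
ERSE-II was present in 2 other members, against 0.0513% of promoters, again in capitals:
HERPUD1 (chr16:56931995-56932065, plus strand): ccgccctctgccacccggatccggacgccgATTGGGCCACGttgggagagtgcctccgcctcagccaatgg
SDF2L1 (chr22:21642084-21642154, plus strand): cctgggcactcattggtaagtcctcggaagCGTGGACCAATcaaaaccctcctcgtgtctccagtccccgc
The ERSE began 66 bases before the start in HSPA5, 52 in XBP1, 80 in CRELD2, 225 in CALR, and 194 and 89 in HSP90B1. ERSE-II began 117 bases before the start in HERPUD1 and 188 in SDF2L1. DNAJB9, PDIA4 and EDEM1 had neither element in this window, and no member had the UPRE, which 0.612% of promoters held. The CCAAT box alone, part of the ERSE, was in 10 of 10 members and in 32% of promoters, and CCACG alone was in 10 of 10 and in 33.5%. The ERSE was first described in promoters of such genes, so its share among them is no independent finding. Only exact matches were sought, so an element that differs by a base was not counted. A match describes letters and not binding.

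Libraries held 17978825 to 37708993 counts. The mitochondrial asparagine tRNA gene (TRNN) had 1 to 6 reads per library, too few to check the labels of the asparagine LNAs. The lysine tRNA gene (TRNK) was not lower in the group named for it: it stood at 6.79, 5.88 and 5.93 CPM (read counts scaled to library size) in control and 7.54, 8.28 and 7.37 CPM under mtLys. This TRNK difference of 0.32 ± 0.15 on the log2 scale missed the threshold (adjusted p = 0.0979, edgeR). Under mtAsn-2 TRNK was higher than control by 0.44 ± 0.15, which passed (adjusted p = 0.0205). Under mtAsn-1 its value of 0.36 ± 0.16 missed the threshold (adjusted p = 0.0748). These reads cannot decide whether an LNA acted on its tRNA, since pairing need not change the number of reads. Neither tRNA gene thus verified or contradicted a label, and groups are named here as the labels name them. The markers VIM, CD44, SPARC, AXL and CAV1, expected of MDA-MB-231, each had a level of at least 1 CPM in every group. Together these 5 summed to 5515 to 5915 CPM in control, 5851 to 6220 under mtAsn-1, 5872 to 6041 under mtLys and 5041 to 5270 under mtAsn-2, below control. Markers of luminal breast and epithelial cells summed to 107 to 139 CPM, of leukocytes to 2.21 to 4.204 CPM and of fibroblasts and endothelium to 64.5 to 73.2 CPM in control, 60.8 to 70.2 under mtAsn-2, 48.2 to 52.0 under mtAsn-1 and 52.7 to 57.1 under mtLys. The fibroblast marker DCN was at 0 in all 12 libraries. Single markers within a sum moved apart. COL1A1 was at 60.1, 53.6 and 55.9 CPM in control and 36.2, 33.6 and 33.2 under mtAsn-1. PECAM1 went the other way, from 12.8, 10.5 and 12.3 CPM to 15.6, 17.9 and 14.8, and mtLys showed the same directions. Most of the luminal sum was ERBB2, at 90.6, 89.3 and 91.0 CPM in control and 118, 119 and 118 under mtAsn-2. The luminal sum was highest under mtAsn-2, where it was 138 to 139 CPM against 107 to 111 CPM in control, and the part of these marker shifts in the results below was not tested.

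Per kilobase of exon, CALR was the most abundant member in control cells, at 588 CPM per kilobase, followed by HSP90B1 at 299, HSPA5 at 165, PDIA4 at 92.3 and XBP1 at 53.1. HERPUD1 stood at 21.2, EDEM1 at 19.5, SDF2L1 at 16.1, DNAJB9 at 8.13 and CRELD2 at 6.33 CPM per kilobase. The 10 members together took 0.315% to 0.326% of all counts in control libraries. They took 0.379% to 0.405% under mtAsn-1, 0.360% to 0.391% under mtLys and 0.339% to 0.351% under mtAsn-2. None of these 3 ranges overlapped that of control. CALR, HSP90B1 and HSPA5 had the most reads of the members in every library, so this share mostly follows them.

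**Figure D1:**
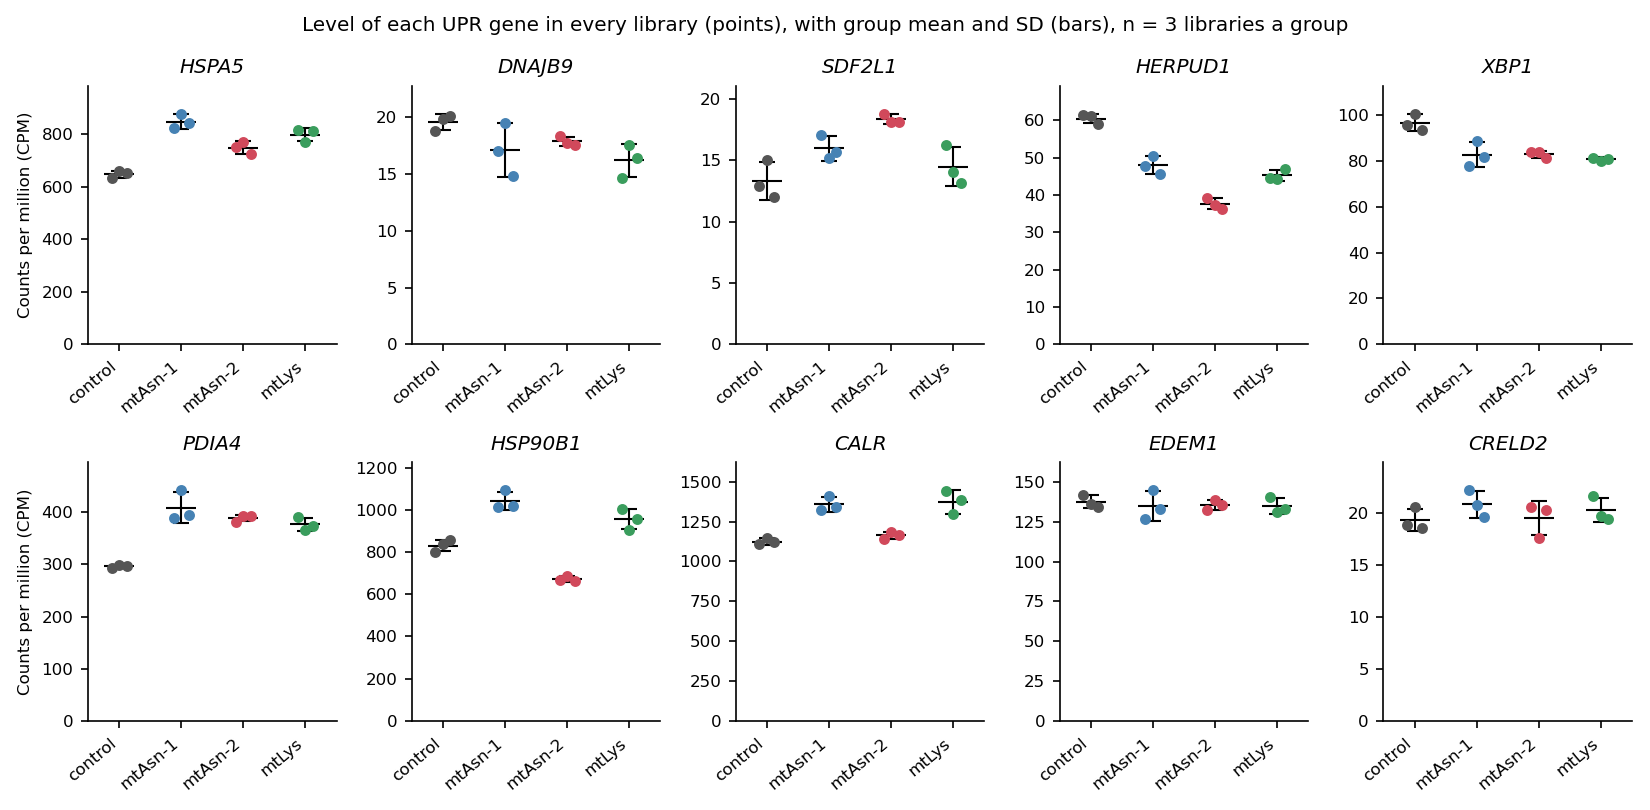
Level in CPM of the 10 members (vertical axes, linear, from 0) in each of the 12 libraries (points), by LNA group, with the mean and SD of 3 libraries as bars. HSPA5 and PDIA4 are above control in all 9 libraries of the other groups, HERPUD1 and XBP1 are below it in all 9, and HSP90B1 is above control under mtAsn-1 and mtLys and below it under mtAsn-2.

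The members did not move as a block. HSPA5 and PDIA4 were higher than control with each of the 3 mitochondrial tRNA LNAs, HERPUD1 and XBP1 were lower with each, and EDEM1 and CRELD2 passed the test with none. With mtAsn-1, 5 of 10 members were higher than control (HSPA5, SDF2L1, PDIA4, HSP90B1 and CALR) and 3 were lower (DNAJB9, HERPUD1 and XBP1). The corresponding shares over the 16051 tested genes were 24.3% higher and 24.2% lower at a Benjamini-Hochberg adjusted p under 0.05 in the edgeR quasi-likelihood test. With mtAsn-2, 3 of 10 were higher (HSPA5, SDF2L1 and PDIA4) and 3 lower (HERPUD1, XBP1 and HSP90B1), against 24.1% and 27.0% of tested genes. With mtLys, 4 of 10 were higher (HSPA5, PDIA4, HSP90B1 and CALR) and 3 lower (DNAJB9, HERPUD1 and XBP1), against 24.6% and 23.9%. The median log2 fold change of the members was 0.17 under mtAsn-1, -0.0066 under mtAsn-2 and 0.091 under mtLys, where that of all tested genes was -0.0035, -0.0071 and -0.00054. The libraries of the groups did not overlap for 7 of 10 members in each comparison with control, against 53.8% of tested genes under mtAsn-1, 56.8% under mtAsn-2 and 56.3% under mtLys. No member passed with a change of 2-fold or more, against 5.73%, 6.00% and 5.66% of tested genes under mtAsn-1, mtAsn-2 and mtLys. The only member to pass with 1.5-fold or more was HERPUD1 under mtAsn-2, against 13.7%, 14.8% and 13.6% of tested genes in the same order. These 3 comparisons share the same control libraries, so their values are set side by side and are not independent of each other.

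**Figure D2:**
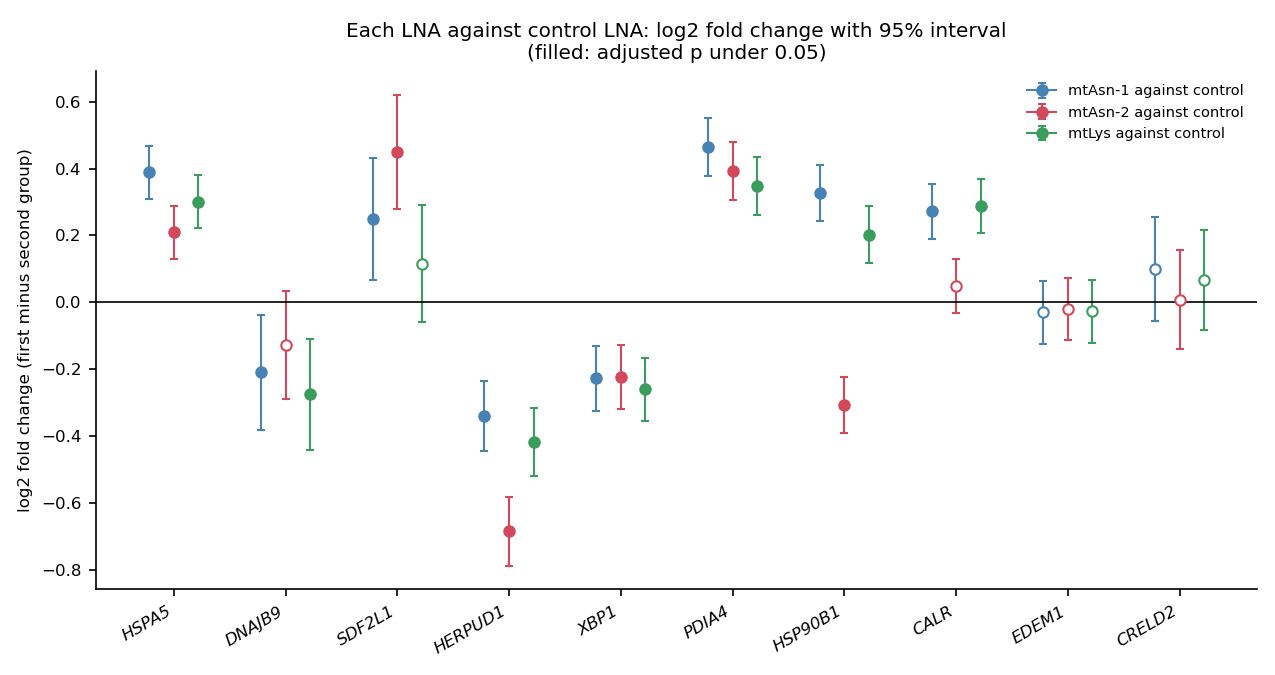
Log2 fold change of each member against control LNA (vertical axis) with its 95% interval, for the 3 mitochondrial tRNA LNAs. Filled points passed an adjusted p of 0.05 in edgeR and open points did not; HSP90B1 lies at 0.33 and 0.20 under mtAsn-1 and mtLys and at -0.31 under mtAsn-2.

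HSPA5 encodes BiP, the main ER member of the Hsp70 chaperone family, which also holds the sensors inactive when unstressed (chromosome 9, 125234853 to 125241343, minus strand, hg38). It measured 634, 659 and 651 CPM in the control libraries, 823, 879 and 844 under mtAsn-1, 752, 771 and 724 under mtAsn-2, and 816, 769 and 811 under mtLys. All 9 libraries of the mitochondrial tRNA LNAs were above all 3 control libraries. The log2 fold change was 0.39 ± 0.039 (SE) under mtAsn-1 (adjusted p = 2.44e-09, edgeR), 0.21 ± 0.038 under mtAsn-2 (adjusted p = 4.28e-05) and 0.30 ± 0.038 under mtLys (adjusted p = 2.17e-07). In percent, HSPA5 was 30.9% higher under mtAsn-1.

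HSP90B1 encodes GRP94, the ER member of the Hsp90 family, which folds integrins and other surface proteins (chromosome 12, 103930410 to 103947926, plus strand). Its exons overlap the same-strand microRNA gene MIR3652. Its level was 801, 836 and 856 CPM in control, 1016, 1094 and 1019 under mtAsn-1, and 1004, 906 and 959 under mtLys. With mtAsn-2 it was 666, 687 and 662 CPM, below every library of the other 3 groups. The change was thus 0.33 ± 0.041 on the log2 scale under mtAsn-1 (adjusted p = 1.85e-07, edgeR) and 0.20 ± 0.041 under mtLys (adjusted p = 0.000175), but -0.31 ± 0.041 under mtAsn-2 (adjusted p = 3.96e-07). HSP90B1 was the only member past the threshold in opposite directions against control. The share of all tested genes with such a reversal was not counted.

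CALR encodes calreticulin, a calcium-binding chaperone that holds glycoproteins during folding (chromosome 19, 12938600 to 12944490, plus strand). It stood at 1107, 1147 and 1119 CPM in control, 1325, 1409 and 1340 under mtAsn-1, and 1442, 1295 and 1382 under mtLys. With mtAsn-2 it was 1141, 1185 and 1165 CPM, where the lowest library lay within the control range. The log2 fold change was 0.27 ± 0.040 under mtAsn-1 (adjusted p = 1.87e-06, edgeR) and 0.29 ± 0.040 under mtLys (adjusted p = 7.27e-07). With mtAsn-2 it was 0.049, with a 95% interval of -0.032 to 0.13 (adjusted p = 0.312).

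PDIA4 encodes a protein disulfide isomerase, which forms and rearranges disulfide bonds in folding proteins (chromosome 7, 149003051 to 149028505, minus strand). It measured 293, 299 and 296 CPM in control, 389.9, 442 and 395 under mtAsn-1, 382, 392 and 392 under mtAsn-2, and 390.3, 365 and 375 under mtLys. The control libraries lay below all others. The log2 fold change was 0.47 ± 0.043 under mtAsn-1 (adjusted p = 5.62e-10, edgeR), 0.39 ± 0.042 under mtAsn-2 (adjusted p = 8.95e-09) and 0.35 ± 0.042 under mtLys (adjusted p = 1.09e-07). Its window held no exact match to either ERSE form.

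SDF2L1 encodes a partner of the ER Hsp70 system that limits protein aggregation (chromosome 22, 21642302 to 21644299, plus strand). It was low, at 12.9, 15.0 and 11.96 CPM in control, 17.1, 15.1 and 15.7 under mtAsn-1, 18.8, 18.1 and 18.1 under mtAsn-2, and 16.2, 14.1 and 13.2 under mtLys. The mtAsn-2 libraries stood highest and did not overlap any other group, the mtLys libraries overlapped control, and the lowest mtAsn-1 library (15.14 CPM) was close to the highest control library (15.03 CPM). The log2 fold change was 0.45 ± 0.083 under mtAsn-2 (adjusted p = 4.52e-05, edgeR) and 0.25 ± 0.089 under mtAsn-1 (adjusted p = 0.0215). With mtLys it was 0.12, with a 95% interval of -0.060 to 0.29 (adjusted p = 0.281). The mtAsn-1 call was lost without control replicate 1 (adjusted p = 0.0771), control replicate 3 (0.105) or mtAsn-1 replicate 1 (0.104).

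DNAJB9 encodes ERdj4, a J-domain cochaperone of BiP that takes part in protein disposal and in restraint of IRE1 (chromosome 7, 108569874 to 108574850, plus strand). It stood at 18.8, 19.8 and 20.1 CPM in control, 17.0, 19.5 and 14.8 under mtAsn-1, 18.3, 17.7 and 17.6 under mtAsn-2, and 14.6, 17.5 and 16.4 under mtLys. The mtAsn-1 libraries spread widely and overlapped control, whereas the mtLys libraries all lay below it. The log2 fold change was -0.28 ± 0.081 under mtLys (adjusted p = 0.0056, edgeR) and -0.21 ± 0.084 under mtAsn-1 (adjusted p = 0.0405). With mtAsn-2 it was -0.13 ± 0.079, which missed the threshold (adjusted p = 0.184), although its libraries also lay below control. The mtAsn-1 call was lost in DESeq2 (adjusted p = 0.0583), in a fit of these 2 groups alone (0.0635) and without mtAsn-1 replicate 3, where the log2 fold change was -0.10 (adjusted p = 0.368). It was also lost without control replicate 2 (0.107), control replicate 3 (0.0968), mtAsn-1 replicate 1 (0.0756), mtAsn-2 replicate 2 (0.0503) or mtLys replicate 3 (0.0503). The mtLys call was lost without mtLys replicate 1 (adjusted p = 0.0628).

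CRELD2 encodes a secreted ER stress factor with cysteine-rich domains (chromosome 22, 49918634 to 49927540, plus strand). It ranged from 17.6 to 22.2 CPM over all 12 libraries, and every group overlapped control. The 95% interval of the log2 fold change ran from -0.057 to 0.25 under mtAsn-1, from -0.14 to 0.16 under mtAsn-2 and from -0.082 to 0.22 under mtLys. Its exons overlap LOC107985553 on the opposite strand, and whether counting used strand is not given in the sources used here, so its value is uncertain.

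HERPUD1 and EDEM1 serve ER-associated degradation, which removes misfolded proteins to the proteasome. HERPUD1, a membrane protein that organises the disposal complex (chromosome 16, 56932142 to 56944864, plus strand), was at 61.4, 61.1 and 59.0 CPM in control and 47.9, 50.4 and 45.7 under mtAsn-1. It was at 39.3, 37.3 and 36.3 CPM under mtAsn-2 and 44.6, 44.4 and 47.1 under mtLys. All 9 libraries were below control and the mtAsn-2 libraries were the lowest. HERPUD1 fell by 0.34 ± 0.051 on the log2 scale under mtAsn-1 (adjusted p = 3e-06, edgeR), by 0.69 ± 0.050 under mtAsn-2 (adjusted p = 3.99e-12) and by 0.42 ± 0.050 under mtLys (adjusted p = 5.9e-08). The mtAsn-2 decrease corresponds to a change of -37.8%. Besides its ERSE-II, the HERPUD1 window held TGATGNAAN, a form of the element bound by ATF4 with its partners, which was present in 3.13% of promoters and in no other member.

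EDEM1, a lectin that hands mannose-trimmed glycoproteins to disposal (chromosome 3, 5187707 to 5219963, plus strand), ranged from 127 to 145 CPM, and each group overlapped control. Its 95% interval of the log2 fold change was -0.12 to 0.064 under mtAsn-1, -0.11 to 0.072 under mtAsn-2 and -0.12 to 0.065 under mtLys.

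XBP1 encodes the transcription factor of the IRE1 arm (chromosome 22, 28794560 to 28800572, minus strand). It measured 95.7, 100.5 and 93.4 CPM in control, 77.8, 88.7 and 81.6 under mtAsn-1, 83.6, 83.7 and 81.1 under mtAsn-2, and 81.4, 79.8 and 80.9 under mtLys. Control libraries were above all others. XBP1 fell by 0.23 ± 0.047 on the log2 scale under mtAsn-1 (adjusted p = 0.000224, edgeR), by 0.22 ± 0.046 under mtAsn-2 (adjusted p = 0.000174) and by 0.26 ± 0.046 under mtLys (adjusted p = 3.09e-05). Of the 5 members with an ERSE, HSPA5 was higher in all 3 comparisons with control, CALR in 2, HSP90B1 in 2 and lower in the third, XBP1 lower in all 3, and CRELD2 in none. The 2 members with an ERSE-II moved apart, HERPUD1 lower in all 3 comparisons and SDF2L1 higher in 2.

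The LNAs were then compared with each other in pairs, and none of these tests isolates what the asparagine LNAs share. Between mtAsn-1 and mtAsn-2, 4 of 10 members were higher under mtAsn-1 (HSP90B1, HERPUD1, CALR and HSPA5) and 1, SDF2L1, was lower, against 24.6% and 21.9% of tested genes. Libraries of the 2 groups did not overlap for 5 members, against 52.7% of tested genes. HSP90B1 was 0.63 ± 0.041 higher on the log2 scale under mtAsn-1 (adjusted p = 4.29e-13, edgeR), which is 55.3%. HERPUD1 was 0.35 ± 0.052 higher (adjusted p = 2.8e-06), CALR 0.22 ± 0.040 (adjusted p = 3.49e-05) and HSPA5 0.18 ± 0.038 (adjusted p = 0.000326). SDF2L1 differed by -0.20 ± 0.083 (adjusted p = 0.0492), which was not past the threshold in DESeq2 (adjusted p = 0.0595) or with the replicate number as a block (0.0555), and was lost without mtAsn-1 replicate 2 or 3 or any 1 mtAsn-2 library (adjusted p up to 0.136).

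**Figure D3:**
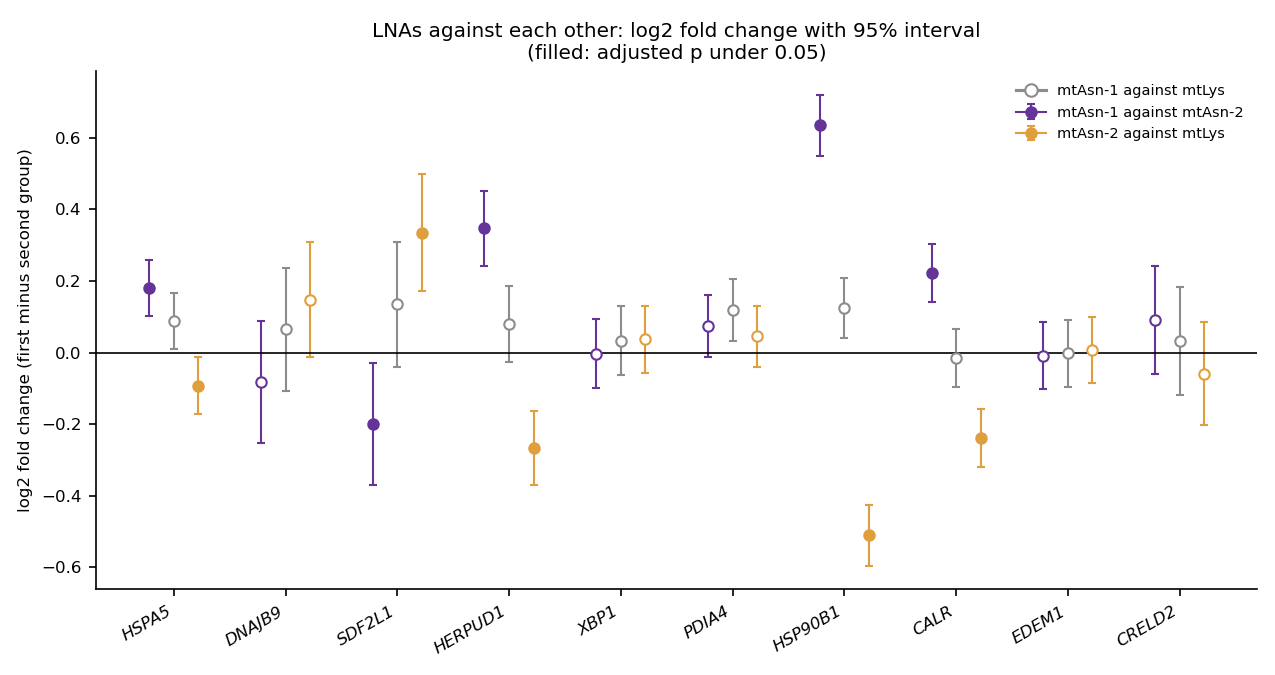
Log2 fold change of each member between pairs of mitochondrial tRNA LNAs (vertical axis, first minus second group) with its 95% interval. Filled points passed an adjusted p of 0.05 in edgeR; HSP90B1 is at 0.63 for mtAsn-1 against mtAsn-2 and at -0.51 for mtAsn-2 against mtLys, and no point is filled for mtAsn-1 against mtLys.

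Between mtAsn-2 and mtLys, 1 of 10 members was higher under mtAsn-2 (SDF2L1) and 4 were lower (HSP90B1, HERPUD1, CALR and HSPA5), against 22.9% and 25.7% of tested genes. The libraries did not overlap for 5 members, against 56.6%. HSP90B1 differed by -0.51 ± 0.041 (adjusted p = 3.44e-11, edgeR), HERPUD1 by -0.27 (adjusted p = 6.7e-05), CALR by -0.24 (adjusted p = 1.21e-05) and SDF2L1 by 0.34 (adjusted p = 0.000912). HSPA5 differed by -0.092 ± 0.038 (adjusted p = 0.0475), a call that 6 of 19 alternatives kept, with an adjusted p of up to 0.197. It was lost under RLE factors, either other filter, the replicate block and DESeq2, and without control replicate 3, mtAsn-1 replicate 1 or 3, mtLys replicate 1 or 3, or any 1 mtAsn-2 library.

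Between mtAsn-1 and mtLys, which target different tRNAs by name, no member passed the test in edgeR or in DESeq2, against 2.12% of tested genes higher and 3.14% lower in edgeR. At an unadjusted p under 0.05, 3 members (HSPA5, PDIA4 and HSP90B1) were higher under mtAsn-1 and 0 were lower, against 8.84% and 9.45% of tested genes. Libraries did not overlap for 2 members, against 24.1% of tested genes. The difference in HSP90B1 was 0.12 ± 0.041, with a 95% interval of 0.040 to 0.21 (adjusted p = 0.0789). It passed in 1 fit, without mtLys replicate 1 (0.16, adjusted p = 0.0404). A missed threshold does not show that the 2 LNAs act alike on these genes.

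Of the sensor genes, ERN1 moved in opposite directions against control. ERN1 was at 25.3, 24.6 and 22.7 CPM in control, 15.1, 18.1 and 16.6 under mtAsn-1, 28.2, 27.5 and 27.8 under mtAsn-2, and 14.3, 14.9 and 13.7 under mtLys. The mtAsn-2 libraries were above control and those of mtAsn-1 and mtLys below it, with no overlap. The log2 fold change was -0.55 ± 0.071 under mtAsn-1 (adjusted p = 2.36e-07, edgeR), 0.20 ± 0.064 under mtAsn-2 (adjusted p = 0.011) and -0.76 ± 0.068 under mtLys (adjusted p = 3.38e-10). ERN1 was 0.96 ± 0.066 higher under mtAsn-2 than under mtLys (adjusted p = 1.04e-12). ATF6 rose by 0.17 under mtAsn-1 (adjusted p = 0.00196) and 0.12 under mtLys (adjusted p = 0.0181), and its change under mtAsn-2 was -0.082 (adjusted p = 0.117). EIF2AK3, which overlaps LOC101928371 on the opposite strand and is uncertain for that reason, had values of -0.15, -0.11 and -0.19 that did not pass the test. CREB3L1, an ER-bound transcription factor related to ATF6, fell by 0.46 under mtAsn-1, 0.60 under mtAsn-2 and 0.47 under mtLys (adjusted p = 1.88e-09, 6.63e-12 and 1.13e-09). On the list of sensors and transcription factors, 3 of 9 tested genes were higher and 3 lower under mtAsn-1, 1 and 1 under mtAsn-2, and 3 and 3 under mtLys. All tested genes had shares of 24.3% higher and 24.2% lower under mtAsn-1, 24.1% and 27.0% under mtAsn-2, and 24.6% and 23.9% under mtLys.

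**Figure D4:**
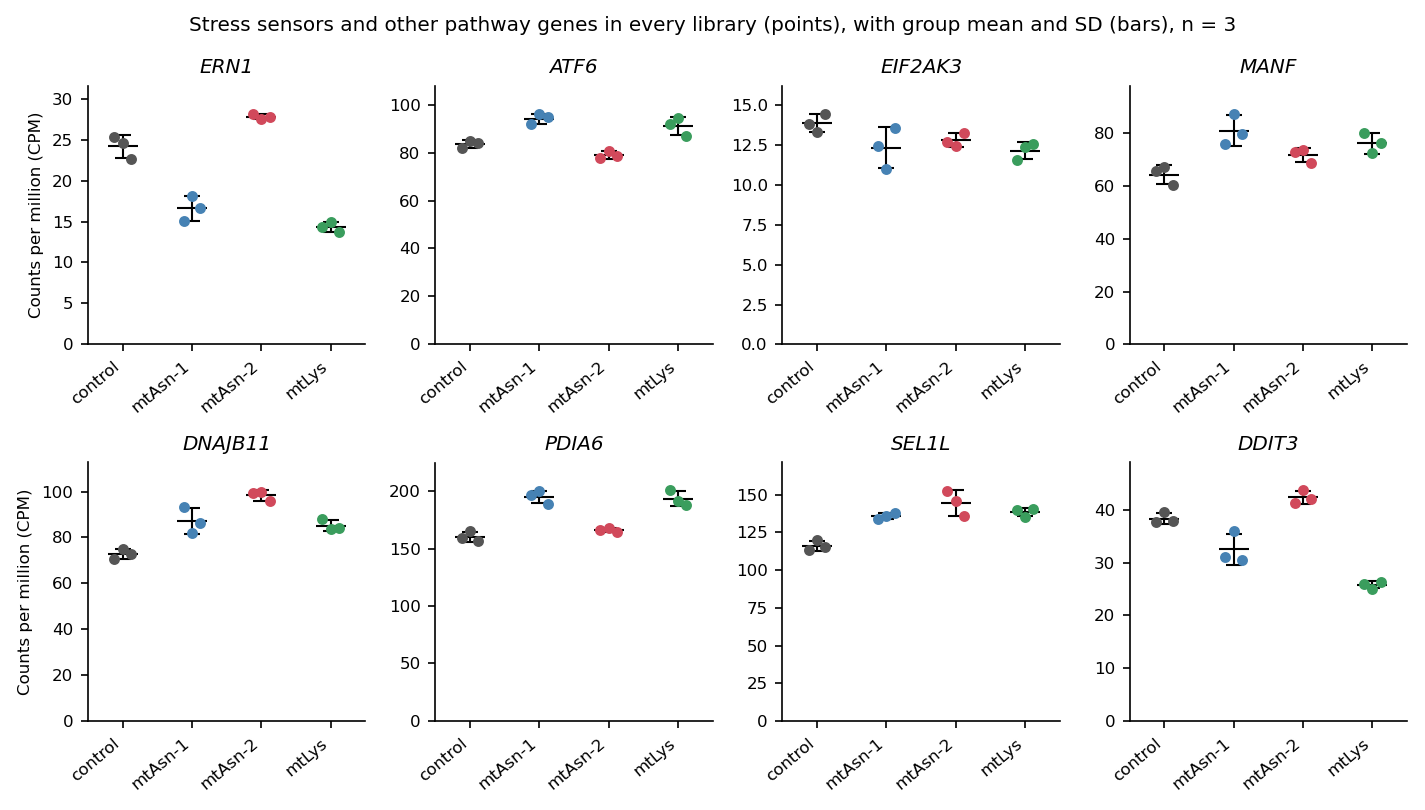
Level in CPM (vertical axes, linear, from 0) of the sensors ERN1, ATF6 and EIF2AK3, of MANF, DNAJB11, PDIA6 and SEL1L, and of DDIT3 in each library (points), with group mean and SD of 3 libraries as bars. ERN1 and DDIT3 lie above control under mtAsn-2 and below it under mtAsn-1 and mtLys.

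Of the folding genes outside the members that passed the test, more were higher than lower. Of 12 other ER chaperones and cochaperones tested, 6 were higher and 1 lower under mtAsn-1, 5 and 0 under mtAsn-2, and 6 and 1 under mtLys. The shares over all tested genes were 24.3% higher and 24.2% lower under mtAsn-1, 24.1% and 27.0% under mtAsn-2, and 24.6% and 23.9% under mtLys. DNAJB11, a cochaperone of BiP, was at 70.7, 74.8 and 72.6 CPM in control and 99.5, 99.8 and 95.7 under mtAsn-2, a log2 fold change of 0.43 ± 0.047 (adjusted p = 7.93e-09, edgeR). It rose by 0.26 under mtAsn-1 and 0.23 under mtLys (adjusted p = 5.51e-05 and 0.000205). MANF, a secreted ER stress protein, rose by 0.33 under mtAsn-1, 0.15 under mtAsn-2 and 0.24 under mtLys (adjusted p = 1.56e-05, 0.0192 and 0.000506). SIL1, which recharges BiP by nucleotide exchange, rose by 0.51 under mtAsn-1 (adjusted p = 3.19e-09) and 0.42 under mtLys (adjusted p = 7.01e-08), and its value under mtAsn-2 was 0.070 (adjusted p = 0.264). HYOU1, a large Hsp70-like ER chaperone, was counted at only 0.584 to 1.33 CPM. The annotation used by the authors holds a further copy of it on an alternate locus, so its values of 0.59, 0.66 and 0.47 are uncertain. The same holds for CANX, calnexin, which had 6376 reads over all libraries while 17589 fell on such a copy. CANX is the 1 gene of this list called lower under mtLys (-0.21, adjusted p = 0.0238), so that call is uncertain too.

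Of 13 other disulfide isomerases and oxidases, 9 were higher and 1 lower under mtAsn-1, 6 and 2 under mtAsn-2, and 7 and 1 under mtLys. Their median log2 fold change was 0.22, 0.13 and 0.16, where all tested genes had medians near 0 (given above). PDIA6 rose by 0.28 under mtAsn-1 (adjusted p = 1.33e-06, edgeR) and 0.27 under mtLys (adjusted p = 2.01e-06). With mtAsn-2 the value of PDIA6 was 0.050 (adjusted p = 0.311), and PDIA6 overlaps ATP6V1C2 on the opposite strand. PDIA3, the isomerase that works with calreticulin on glycoproteins, rose by 0.34 under mtAsn-1 (adjusted p = 7.17e-07) and 0.29 under mtLys (adjusted p = 6.6e-06). Its mtAsn-2 libraries, at 296, 306 and 290 CPM, also lay above control, at 250, 267 and 269 CPM. PDIA3 and PDIA6 are both uncertain without strand, since PDIA3 overlaps ELL3 in the same way. ERP44, which retains ER proteins, rose by 0.38 under mtAsn-1, 0.41 under mtAsn-2 and 0.43 under mtLys (adjusted p = 1.97e-06, 2.84e-07 and 1.98e-07). Of 22 genes of N-glycosylation, 10 were higher and 4 lower under mtAsn-1, 11 and 4 under mtAsn-2, and 10 and 4 under mtLys. For this list and the isomerases, the shares over all tested genes were 24.3% higher and 24.2% lower under mtAsn-1. They were 24.1% and 27.0% under mtAsn-2, and 24.6% and 23.9% under mtLys. GANAB, the glucosidase subunit that prepares glycoproteins for calreticulin, rose by 0.39 under mtAsn-1 and 0.45 under mtLys (adjusted p = 5.57e-10 and 4.38e-11). It was higher under mtAsn-2 too, at 970, 1012 and 984 CPM against 777, 800 and 818 CPM in control. STT3A, a catalytic subunit of the glycan transferase, rose by 0.27 under mtAsn-1, 0.44 under mtAsn-2 and 0.35 under mtLys (adjusted p = 1.06e-06, 8.22e-11 and 1.04e-08).

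Counts of disposal and transport genes are read beside the shares of all tested genes, which were 24.3% higher and 24.2% lower under mtAsn-1, 24.1% and 27.0% under mtAsn-2, and 24.6% and 23.9% under mtLys. Of 17 other ER-associated degradation genes tested, 3 were higher and 7 lower under mtAsn-1, 5 and 5 under mtAsn-2, and 4 and 4 under mtLys. SEL1L, a scaffold of the disposal complex that HERPUD1 joins, rose where HERPUD1 fell, by 0.23, 0.32 and 0.25 under mtAsn-1, mtAsn-2 and mtLys (adjusted p = 0.0001, 5.33e-07 and 1.89e-05, edgeR). UBE2G2, a ubiquitin-conjugating enzyme of the pathway, rose by 0.38, 0.56 and 0.35 (adjusted p = 1.21e-08, 3.56e-12 and 3.92e-08). Of 20 translocation and signal peptide genes, 3 were higher and 6 lower under mtAsn-1, 3 and 4 under mtAsn-2, and 4 and 5 under mtLys. SEC62, a translocation receptor that overlaps LOC100128164 on the opposite strand and is uncertain for that reason, fell by 0.58 under mtAsn-2 (adjusted p = 9.36e-11). Its values of -0.18 under mtAsn-1 and -0.15 under mtLys also passed (adjusted p = 0.00354 and 0.014). Of 18 COPII and ER-Golgi transport genes tested, 2 were higher and 7 lower under mtAsn-1, 5 and 7 under mtAsn-2, and 5 and 7 under mtLys. The coat subunits SEC13 and SEC24D fell by 0.65 and 0.63 under mtAsn-2 (adjusted p = 3.34e-13 and 3.31e-12). Both were lower with the other LNAs too. SEC13 was at -0.14 under mtAsn-1 and -0.12 under mtLys (adjusted p = 0.00651 and 0.0189). SEC24D was at -0.18 under each (adjusted p = 0.00165 and 0.0014).

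**Figure D5:**
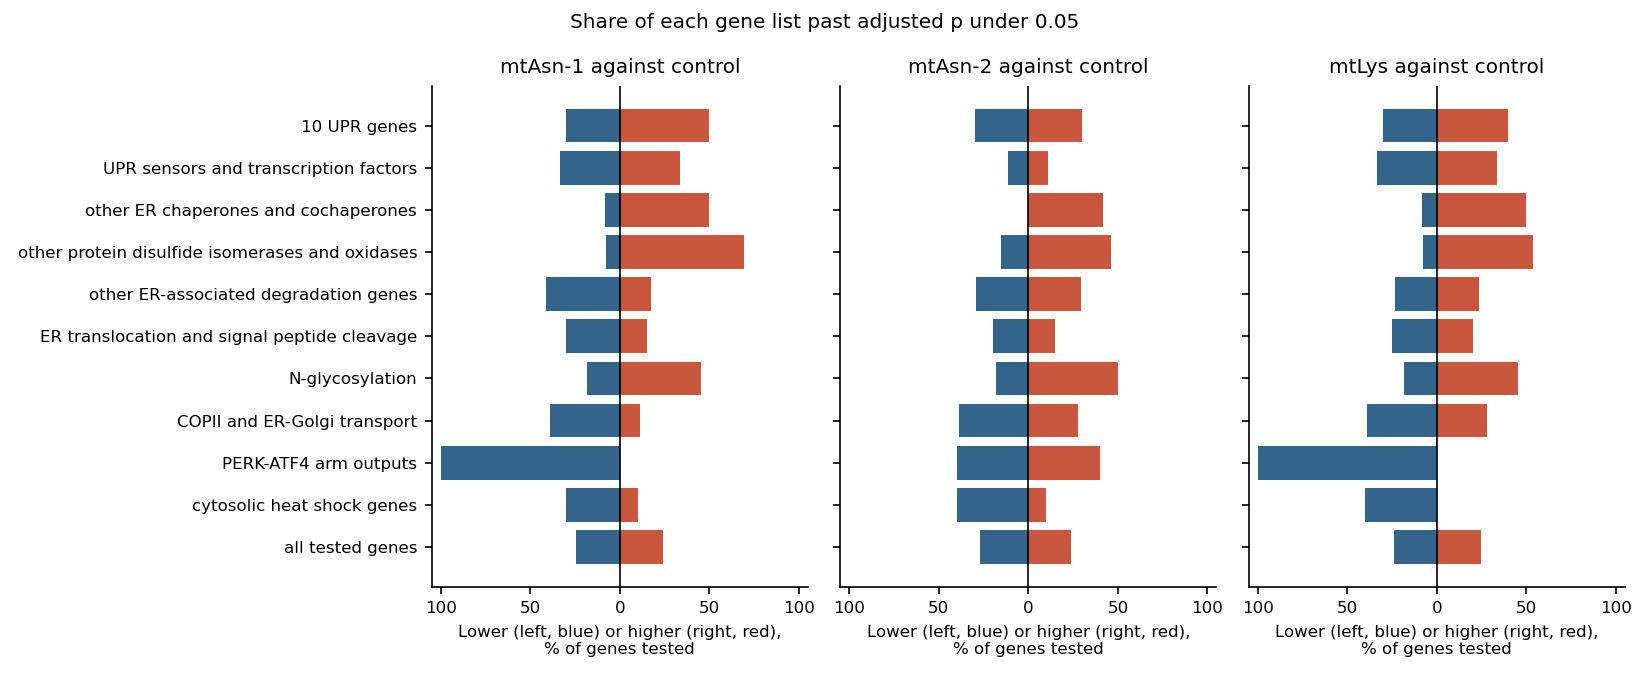
Share of the tested genes of each list, in percent (horizontal axes), higher (red, right of 0) or lower (blue, left of 0) than control at an adjusted p under 0.05 in edgeR, with 1 panel for each LNA and all tested genes as the bottom bar. Of 13 disulfide isomerases and oxidases, 9, 6 and 7 were higher and 1, 2 and 1 lower under mtAsn-1, mtAsn-2 and mtLys.

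Some outputs of the PERK and ATF4 arm differed in direction between the LNAs, and others were below control with each LNA. Of 5 tested (ATF4, DDIT3, TRIB3, PPP1R15A and CHAC1), 0 were higher and 5 lower under mtAsn-1 and under mtLys, while 2 were higher and 2 lower under mtAsn-2. DDIT3, the stress factor CHOP, whose exons overlap MARS1 on the opposite strand and whose values are uncertain for that reason, was at 37.7, 39.6 and 37.9 CPM in control, 31.1, 35.9 and 30.6 under mtAsn-1, 41.4, 43.8 and 42.2 under mtAsn-2, and 26.0, 25.1 and 26.4 under mtLys. Its log2 fold change was -0.25 under mtAsn-1 (adjusted p = 0.00103, edgeR), 0.14 under mtAsn-2 (adjusted p = 0.0333) and -0.57 under mtLys (adjusted p = 3.64e-09). CHAC1, a glutathione-degrading target of ATF4, changed by -0.89 and -1.18 under mtAsn-1 and mtLys (adjusted p = 6.19e-10 and 1.06e-12), and its value under mtAsn-2 was -0.077 (adjusted p = 0.39). TRIB3 and ATF4 lay below control in every library of each LNA. TRIB3 averaged 42.7 CPM in control, 27.0 under mtAsn-1, 31.4 under mtAsn-2 and 24.1 under mtLys. ATF4 averaged 557, 459, 524 and 413 CPM in the same order, and its exons overlap MIEF1 on the same strand. Of 10 tested cytosolic heat shock genes, 1 was higher and 3 lower under mtAsn-1, 1 and 4 under mtAsn-2, and 0 and 4 under mtLys. Both lists are read beside all tested genes, of which 24.3% were higher and 24.2% lower under mtAsn-1. These shares were 24.1% and 27.0% under mtAsn-2, and 24.6% and 23.9% under mtLys. HSPA4, a cytosolic exchange factor of Hsp70, fell by 0.64 under mtAsn-2 (adjusted p = 1.36e-13). Its smaller values of -0.13 under mtAsn-1 and -0.11 under mtLys also passed (adjusted p = 0.00746 and 0.0181).

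Across the 12 libraries, log2 CPM of PDIA4 and CALR followed HSPA5 most closely among the members, with Pearson r of 0.92 and 0.88. HSP90B1 had 0.55, CRELD2 and SDF2L1 0.39 each, EDEM1 -0.088, HERPUD1 -0.50, DNAJB9 -0.60 and XBP1 -0.72. Among 10709 genes outside the lists with a mean log2 CPM of at least 2, 1.94% had a higher r with HSPA5 than PDIA4 and 4.78% a higher r than CALR. The share was 24.6% for HSP90B1, 32.4% for CRELD2, 32.7% for SDF2L1, 55.0% for EDEM1, 73.7% for HERPUD1, 79.5% for DNAJB9 and 86.5% for XBP1. The genes most like HSPA5 were PITPNC1 (0.992), HAUS4 (0.984), LOC103344931 (0.982), PLAUR (0.982) and BCKDK (0.981). PITPNC1 averaged 10.9 CPM in control, 24.3 under mtAsn-1, 17.1 under mtAsn-2 and 20.8 under mtLys. PLAUR, the urokinase receptor, averaged 96.2, 168, 131 and 161 CPM in the same order. The libraries share their 4 groups, so these coefficients mostly describe the order of group means and carry no test. In bulk RNA, fewer cells that express a gene and less RNA per cell cannot be told apart.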

How the data were processed

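RNA of 12 MDA-MB-231 libraries (4 LNA groups of 3, taken from the labels) was prepared with a TruSeq RNA kit, per the labels' protocols. The authors deposited raw read counts per gene in 1 table with no normalisation. Per the submitters' processing notes, FastQC, STAR 2.6.0a, featureCounts and DESeq2 were used with hg38. Whether strand was used, and how reads with several matches were treated, is not given in the sources used here. Of 52897 lines, 52859 were used, and 38 were left out as broken or fragments (12 named genes, 26 fragments).

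Counts were analysed with edgeR 4.0.16 in R 4.3.3: TMM factors, filterByExpr by group (minimum count 10, total 15), 1 robust quasi-likelihood fit of all 12 libraries (common biological coefficient of variation 0.0421) and Benjamini-Hochberg adjustment over 16051 genes within each comparison, at a threshold of 0.05. The SE was recovered from each F statistic as the size of the log2 fold change divided by the root of F. CPM uses TMM-scaled library sizes, and SD is over 3 libraries. Within groups, no pair of libraries looked like 1 library deposited again (chi-square per gene at least 2.43).

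Tried beside this were DESeq2 1.42.0, RLE factors, factors computed without mitochondrial genes, a looser and a stricter filter, a replicate block, fits of 2 groups only, and fits without each library in turn. The named genes are all members, 8 fixed pathway genes (ERN1, EIF2AK3, ATF6, HYOU1, MANF, DNAJB11, PDIA6, SEL1L), up to 2 rises and 2 falls per list and comparison with the smallest adjusted p, and the 5 genes most correlated with HSPA5. Named outside this rule, after their values were seen, are values of such list genes in their other comparisons, single cell type markers and the genes with an ERSE in the closing section. The members and lists were chosen with earlier results of these data known. Sequences are from RefSeq (GRCh38.p14), figures from matplotlib 3.10.9 in Python 3.11.15.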

Additional observations from a re-analysis of the deposited data

Results flagged for a closer look

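Among the members, HSP90B1 stood out because its change against control had opposite directions with the 2 asparagine LNAs and the direct difference between them passed the test. How many of all tested genes did the same was not counted, and ERN1 and DDIT3, outside the members, were also called in opposite directions. The direct difference alone passed in 24.6% of tested genes as higher and 21.9% as lower under mtAsn-1. HSP90B1 was 0.63 ± 0.041 higher on the log2 scale under mtAsn-1 than under mtAsn-2 (adjusted p = 4.29e-13, edgeR), with 3 of 3 mtAsn-1 libraries above 3 of 3 mtAsn-2 libraries. The difference stayed between 0.60 and 0.65 in the 12 fits that left out 1 library.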

How the results depend on the processing

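The members were called higher or lower in 4 to 5 and 2 to 3 genes under mtAsn-1, 3 and 3 under mtAsn-2, and 4 and 2 to 3 under mtLys against control when each library was left out. The count of members lower under mtAsn-1 than under mtAsn-2 was 0 to 1 without single libraries, 0 with the replicate block and 0 with DESeq2. Deviations of same-numbered libraries correlated at -0.0991 to 0.0417 over 18 pairs, and those of different-numbered libraries at -0.0978 to 0.123 over 36 pairs. With 3 libraries a group, this cannot tell whether same-numbered libraries shared a culture or batch. The replicate block changed no other count of members by over 1.5 times. Members higher under mtAsn-1 than under mtLys numbered 0 to 1, and higher under mtAsn-2 than under mtLys 1 to 2 (2 without mtLys replicate 2, where DNAJB9 was at 0.22, adjusted p = 0.0445). Signs turned only for members not past the threshold in that comparison, with these ranges of the log2 fold change without single libraries. EDEM1 ran from -0.081 to 0.013 for mtAsn-1 against control, -0.037 to 0.0028 for mtAsn-2 against control (0.0075 with no filter), -0.060 to 0.034 for mtAsn-1 against mtAsn-2, -0.054 to 0.040 for mtAsn-1 against mtLys and -0.0099 to 0.037 for mtAsn-2 against mtLys. CRELD2 ran from -0.026 to 0.082 for mtAsn-2 against control, -0.016 to 0.083 for mtAsn-1 against mtLys and -0.093 to 0.014 for mtAsn-2 against mtLys. XBP1 ran from -0.054 to 0.037 and DNAJB9 from -0.18 to 0.024 for mtAsn-1 against mtAsn-2. For mtAsn-1 against mtLys, XBP1 ran from -0.016 to 0.074, DNAJB9 from -0.030 to 0.17 and CALR from -0.059 to 0.020. The cause was not tested. Neither RLE factors, DESeq2 nor factors without mitochondrial genes moved the median of all genes by over 0.0081 on the log2 scale. SDF2L1, DNAJB9 and CRELD2, at most 22.2 CPM, had the lowest levels and the widest intervals of the members.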

Other observations

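The ERSE of the members was also sought in all other promoters, an analysis added after the data had been seen. It was found before 25 genes, of which 20 were not members and 11 of these were tested. Of those 11, 4 were higher and 2 lower than control under mtAsn-1, 5 and 1 under mtAsn-2, and 4 and 3 under mtLys, beside the shares of all tested genes given in the report. ERO1B, an oxidase that recharges the disulfide isomerases, rose by 0.41 under mtAsn-1, 0.64 under mtAsn-2 and 0.42 under mtLys (adjusted p = 0.00116, 9.2e-07 and 0.000461, edgeR), from a mean of 5.51 CPM in control. Its exons overlap GPR137B on the opposite strand, so without known strandedness its values are uncertain. FICD, the enzyme that switches BiP off by attaching AMP and on by removing it, rose by 0.22, 0.28 and 0.37 (adjusted p = 0.0166, 0.00216 and 9.22e-05). SERP1, a small protein of the translocation channel, fell by 0.28 under mtAsn-1 and 0.27 under mtLys (adjusted p = 0.000139 and 0.000177), and its value under mtAsn-2 was -0.047 (adjusted p = 0.497). SYNPO, an actin-associated gene, fell by 1.34, 0.97 and 0.87 (adjusted p = 6.16e-14, 3.18e-12 and 3.51e-11).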
